A study of Homo sapiens with 24 samples.

Results

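The 37 transcripts of the human mitochondrial genome, all genes in the deposited expression table whose symbols start with MT-, were followed in mammary epithelial cells before and during a block of transcription. They were 13 mRNAs, 2 rRNAs and 22 tRNAs among 38849 genes in the table, and the rule that picked them used the symbol and no measured value. The cells were HMLE, an immortalized human mammary epithelial line. One derivative carried RBMS3, an RNA-binding protein, as an overexpression construct, and the other carried LacZ as its control. Each line was treated with actinomycin D at 10 µg/mL and sampled at 0, 90, 180 and 360 min, with 3 libraries at each time, which gave 24 libraries in 8 groups. The series asked which RNAs change in stability when RBMS3 is raised. Both lines share the HMLE background, the serum-containing medium with EGF, hydrocortisone and insulin, and the drug. The labels do not say whether either line is a clone or a pool, nor whether the replicates were separate cultures, so p-values reflect only how far these libraries spread, which may be technical.

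The mitochondrial genome is a small circle that is read from both strands as long precursors. Most mRNAs and both rRNAs lie on the product of heavy-strand transcription, whereas MT-ND6 and a minority of the tRNAs come from the light strand. In the arrangement known as tRNA punctuation, tRNAs separate most mRNAs and rRNAs, and cutting at the tRNA ends frees both. Most human mitochondrial mRNAs and both rRNAs then receive A tails, which complete the stop codon in several mRNAs, and the tRNAs receive CCA ends. MT-ND6 mRNA is known to lack a poly(A) tail. Actinomycin D intercalates into DNA and stops transcription, in mitochondria as well as in the nucleus.

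The 3′ ends of 6 mRNAs on which the results turn are shown first, because the assay read tags from the 3′ end of polyadenylated RNA. How the reads of MT-ND6, and of the tRNAs with their CCA ends, were primed was not tested. Counts of these members are therefore not taken as their abundance in the cell. Capitals mark the stop codon, or the part of it that the genome encodes. Sequences and positions were taken from the GENCODE v29 annotation of GRCh38, in which all 37 members have the same transcript identifiers and lengths as in the transcript files. MT-ND6 ends at the low side of chrM:14149-14673 on the light strand and MT-ND1 fills chrM:3307-4262 on the heavy strand. The windows shown are chrM:14149-14208 for MT-ND6, chrM:4203-4262 for MT-ND1, chrM:5452-5511 for MT-ND2, chrM:10345-10404 for MT-ND3, chrM:7386-7445 for MT-CO1 and chrM:8210-8269 for MT-CO2.
MT-ND6: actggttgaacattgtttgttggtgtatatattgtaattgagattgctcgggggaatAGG
MT-ND1: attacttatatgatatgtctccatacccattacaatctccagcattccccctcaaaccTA
MT-ND2: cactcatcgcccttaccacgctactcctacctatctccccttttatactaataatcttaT
MT-ND3: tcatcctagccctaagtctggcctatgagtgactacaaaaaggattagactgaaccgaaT
MT-CO1: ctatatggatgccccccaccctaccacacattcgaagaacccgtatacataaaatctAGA
MT-CO2: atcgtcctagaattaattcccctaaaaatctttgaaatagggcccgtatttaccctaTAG

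The 10 tRNAs printed next, whole and with the anticodon in capitals, are the 5 that gained share over the time course in both lines (MT-TV, MT-TF, MT-TL1, MT-TD and MT-TC), 2 of the 3 that fell in both (MT-TN and MT-TA), and 3 others whose change was called different between the lines (MT-TQ, MT-TE and MT-TP). MT-TV, which carries valine, lies at chrM:1602-1670 between the 2 rRNA genes, and MT-TN, which carries asparagine, lies on the light strand at chrM:5657-5729. The mitochondrial tRNAs were 59 to 75 bases long and the reads 75 bases, so a read could span a whole tRNA. The files do not separate reads of a mature tRNA from reads of a longer precursor over the same bases, and this was not tested.
MT-TV: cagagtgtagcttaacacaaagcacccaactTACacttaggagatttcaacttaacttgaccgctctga
MT-TF: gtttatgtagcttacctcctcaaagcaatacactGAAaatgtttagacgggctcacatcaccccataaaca
MT-TL1: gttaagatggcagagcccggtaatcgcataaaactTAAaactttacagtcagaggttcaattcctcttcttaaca
MT-TD: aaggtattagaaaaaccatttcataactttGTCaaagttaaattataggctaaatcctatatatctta
MT-TC: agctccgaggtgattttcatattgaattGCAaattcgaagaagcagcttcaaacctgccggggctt
MT-TN: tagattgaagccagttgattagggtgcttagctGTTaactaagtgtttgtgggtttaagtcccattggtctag
MT-TA: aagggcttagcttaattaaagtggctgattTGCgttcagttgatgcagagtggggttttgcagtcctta
MT-TQ: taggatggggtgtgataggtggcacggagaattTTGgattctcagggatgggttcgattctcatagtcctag
MT-TE: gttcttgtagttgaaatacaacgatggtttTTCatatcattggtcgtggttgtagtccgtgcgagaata
MT-TP: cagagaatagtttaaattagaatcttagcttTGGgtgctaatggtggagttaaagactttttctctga

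The values are the authors' normalized counts, which are relative: each is read against the rest of its library, so a gain during a transcription block is a gain in share. For the 37 members they were whole reads times 1 factor per library, within a tolerance of 0.02 reads, and 1 read was worth 0.724 to 1.70 normalized counts. Implied depth was 4405790 to 9727290 reads per library, and 3 reads, the limit that a count of 0 allows, came to 2.17 to 5.11 normalized counts; this floor covers counting error only. In RBMS3 libraries RBMS3 itself had 174 to 358 normalized counts, against 27.6 to 165 in LacZ libraries. At 0 min it was 1.45 higher on the log2 scale in RBMS3 cells (SE 0.39, adjusted p = 0.00608, limma). The summed level of 12 epithelial markers was 3739 to 13978 in RBMS3 libraries and 17452 to 23816 in LacZ libraries. Of these, KRT19 was too low to be tested, at 0 in every RBMS3 library and at 0 to 12.8 in LacZ libraries. Of the 11 epithelial markers tested, 8 were called lower in RBMS3 cells at 0 min and 1, KRT14, higher (means of 6059 in RBMS3 and 2555 in LacZ cells, log2 difference 1.26), while KRT5 and KRT17 were not called, at 0.06 each. For KRT5 the LacZ libraries at 0 min had 3212, 1503 and 3392 normalized counts, replicate 2 lying apart. At 360 min all 11 epithelial markers were called lower. The 11 mesenchymal markers summed to 41598 to 58412 in RBMS3 libraries and 8252 to 11172 in LacZ libraries, and the 10 leukocyte or endothelial markers to 25.2 to 62.4 and 30.2 to 83.3. From 0 to 360 min 4 of the 11 mesenchymal markers were called lower and 2 higher in RBMS3 cells, and 1 lower and 2 higher in LacZ cells. The epithelial and mesenchymal sums did not overlap between the lines and the leukocyte or endothelial sums did. The part of these cell markers in the differences between lines, and in the changes from 0 min within a line, was not tested. Of the 24 transcript files, 12 are recorded under the sample they are named for. The files named for RBMS3 at 0 min and for LacZ at 90, 180 and 360 min are recorded under samples of another group. The table's columns were matched to samples by name, and each file was closest in its MT- values to the column of its own name. This match cannot show whether the names or the records are right, because columns and files carry the same names. Comparisons with those groups rest on the names. In these bulk samples fewer transcripts per cell and fewer cells carrying them cannot be told apart. Reads from a gene and from RNA of the opposite strand cannot be told apart, because no source states that strand was used in counting.

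Of the 37 members, 31 had a mean of at least 10 normalized counts over the 24 libraries and were tested: all 13 mRNAs, both rRNAs and 16 tRNAs. The 6 tRNAs left out, MT-TW, MT-TS1, MT-TG, MT-TR, MT-TL2 and MT-TT, had means of 1.62 to 7.58 and at most 28 reads in any library. A change was called at a limma adjusted p under 0.05 over all 12096 genes tested. Lists of called members are read against the share of all genes called in the same direction.

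The 3 classes took different courses after actinomycin D. The mRNAs lost share in both lines: they made up 2.06% ± 0.027, 1.23% ± 0.059, 0.992% ± 0.020 and 0.799% ± 0.032 of normalized counts in RBMS3 libraries at 0, 90, 180 and 360 min. In LacZ libraries they made up 2.60% ± 0.13, 1.41% ± 0.071, 1.30% ± 0.071 and 1.00% ± 0.026 (SD, n = 3 at each time). At each of the 4 times every RBMS3 library lay below every LacZ library.

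The rRNAs gained share instead. They took 3.72% ± 0.11, 4.77% ± 0.19, 4.88% ± 0.11 and 4.77% ± 0.11 of counts in RBMS3 libraries at the 4 times, and 4.36% ± 0.40, 5.14% ± 0.037, 6.14% ± 0.060 and 6.37% ± 0.47 in LacZ libraries (SD, n = 3 at each time). The RBMS3 values lay close together from 90 min on, while the LacZ values at 180 and 360 min lay above those at 90 min in every library.

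Summed, the tRNAs fell in share and then gained, though single tRNAs went both ways. They made up 0.108% ± 0.0078, 0.0774% ± 0.016, 0.135% ± 0.0066 and 0.196% ± 0.015 of counts in RBMS3 libraries, and 0.160% ± 0.0042, 0.137% ± 0.0099, 0.245% ± 0.0058 and 0.325% ± 0.053 in LacZ libraries (SD, n = 3 at each time). The lines did not overlap at any time. tRNAs with high counts weighed most in the sum. In LacZ cells the summed tRNAs went from 10868 to 9522 normalized counts from 0 to 90 min, while MT-TN alone went from 5451 to 2153. In RBMS3 cells the 16 tested tRNAs had a median log2 change of -0.82 from 0 to 360 min, although the sum gained. Summed over all 37 members the share hardly moved in RBMS3 cells, at 5.89%, 6.08%, 6.01% and 5.76%, and was 7.12%, 6.69%, 7.68% and 7.70% in LacZ cells. A ratio within the library does not depend on scaling: mRNA over rRNA was 0.555 ± 0.024, 0.259 ± 0.016, 0.203 ± 0.0076 and 0.168 ± 0.010 in RBMS3 cells, and 0.599 ± 0.049, 0.275 ± 0.012, 0.211 ± 0.013 and 0.158 ± 0.015 in LacZ cells, so the mRNAs lost ground to the rRNAs in both.

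**Figure D1:**
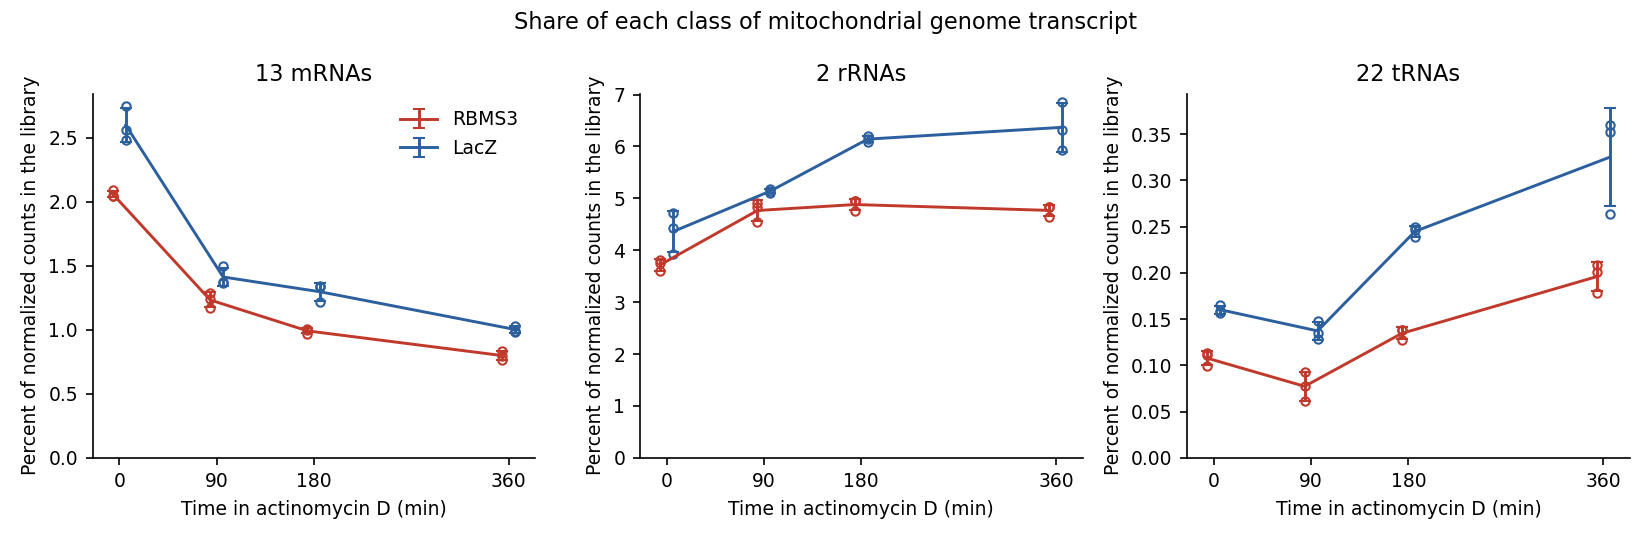
Percent of all normalized counts in a library taken by the 13 mRNAs, 2 rRNAs and 22 tRNAs of the mitochondrial genome, against minutes in actinomycin D, for RBMS3 (red) and LacZ (blue) cells. Circles are libraries, lines join the means and bars are SD (n = 3). The mRNA share falls in both lines, the rRNA share rises, and the tRNA share dips at 90 min and then rises.

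Per kilobase of transcript the classes stood far apart, although 3′ tags read a molecule once whatever its length. At 0 min the rRNAs averaged 101839 normalized counts per kilobase in RBMS3 cells and 117799 in LacZ cells, the mRNAs 12454 and 15462, and the tRNAs 4922 and 7207. For such tags a value per kilobase also depends on length, so it does not rank levels. Among mRNAs at 0 min, MT-ATP8, with 207 bases, was highest per kilobase, at 62424 in RBMS3 cells and 75229 in LacZ cells. MT-ND6 was lowest, at 752 and 2970. By normalized counts MT-ND2 was highest, at 25562 and 47297, against 12922 and 15572 for MT-ATP8. MT-ATP8 and MT-ATP6 share 46 annotated bases, as MT-ND4L and MT-ND4 share 7, and each pair is known to be carried on 1 mRNA, so the split of reads within a pair depends on the counting.

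Before the drug, the lines differed in named transcripts of each class. At 0 min 5 of 31 tested members were higher in RBMS3 cells, where 18.6% of all genes were, and 9 were lower, where 18.9% were. By class, 1 mRNA was higher and 6 lower of 13, no rRNA was higher and 1 lower of 2, and 4 tRNAs were higher and 2 lower of 16. With values scaled to ribosomal protein genes, which put the median of all genes at -0.34, the split was 2 higher and 17 lower. Scaled to the table total it was 5 and 9. Fitted on the 2 groups at 0 min alone, 4 were called higher and 5 lower.

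Among the mRNAs the largest difference at 0 min was in complex I. MT-ND6, the complex I subunit encoded on the light strand, had 405, 405 and 375 normalized counts in RBMS3 libraries at 0 min, against 1523, 1613 and 1542 in LacZ libraries. The 3 RBMS3 libraries lay far below the LacZ ones, with a log2 difference of -1.98 (SE 0.24, adjusted p = 1.13e-06, limma).

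MT-ND2, another complex I subunit, had 24294, 26295 and 26096 normalized counts in RBMS3 libraries, against 47501, 51167 and 43222 in LacZ libraries (log2 difference -0.89, SE 0.07, adjusted p = 1.1e-09, limma). The groups did not overlap. MT-ND1 differed by -0.31 and MT-ND3 by -0.24, both called. MT-ND3 was not called without LacZ replicate 2, RBMS3 replicate 1 or RBMS3 replicate 2, with adjusted p up to 0.0941 by limma. The mRNAs MT-ND4, MT-ND4L and MT-ND5 were not called, at 0.13, 0.01 and -0.10; scaled to ribosomal protein genes they were -0.22, -0.34 and -0.45, all called.

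The remaining mRNAs differed less at 0 min. Of the complex IV subunits, MT-CO1 was higher, with 7289, 6871 and 7136 normalized counts in RBMS3 libraries against 5949, 5976 and 5562 in LacZ libraries (log2 difference 0.28, SE 0.06, adjusted p = 0.000334, limma), but -0.06 and not called when scaled to ribosomal protein genes. MT-CO2 and MT-CO3 were not called, at -0.20 and -0.16. For MT-CO2 the LacZ libraries at 0 min had 21742, 14445 and 19830 normalized counts, replicate 2 lying apart. Without LacZ replicate 2, MT-CO2 and MT-CO3 were both called lower (adjusted p = 0.00171 and 0.0319, limma). The ATP synthase subunits MT-ATP6 and MT-ATP8 were lower, at -0.31 and -0.25, the MT-ATP8 groups overlapping. MT-ATP8 was not called without LacZ replicate 2, at -0.10, or RBMS3 replicate 3, at -0.22 (adjusted p = 0.164 and 0.0967, limma). MT-CYB, the cytochrome b of complex III, was not called, at 0.20, but was called higher without LacZ replicate 1 (adjusted p = 0.0187, limma).

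The 2 rRNAs parted from each other. MT-RNR1, the rRNA of the small mitoribosomal subunit, had 55518, 57702 and 53926 normalized counts in RBMS3 libraries at 0 min, against 89168, 102399 and 82963 in LacZ libraries (log2 difference -0.71, SE 0.07, adjusted p = 6.1e-08, limma). All RBMS3 libraries were lower. MT-RNR2, the rRNA of the large subunit, was not called, at -0.02 (SE 0.07), with 193501 to 205548 normalized counts in RBMS3 libraries and 178382 to 230897 in LacZ libraries.

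The count ratio of MT-RNR1 to MT-RNR2 shows this without any scaling. It was 0.278 ± 0.0027, 0.279 ± 0.020, 0.268 ± 0.0084 and 0.297 ± 0.011 in RBMS3 cells at 0, 90, 180 and 360 min, and 0.448 ± 0.015, 0.464 ± 0.0043, 0.387 ± 0.013 and 0.362 ± 0.0048 in LacZ cells (SD, n = 3 at each time). The highest RBMS3 library at any time, 0.310, was below the lowest LacZ library at any time, 0.357, and the means of the lines lay nearest at 360 min.

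**Figure D2:**
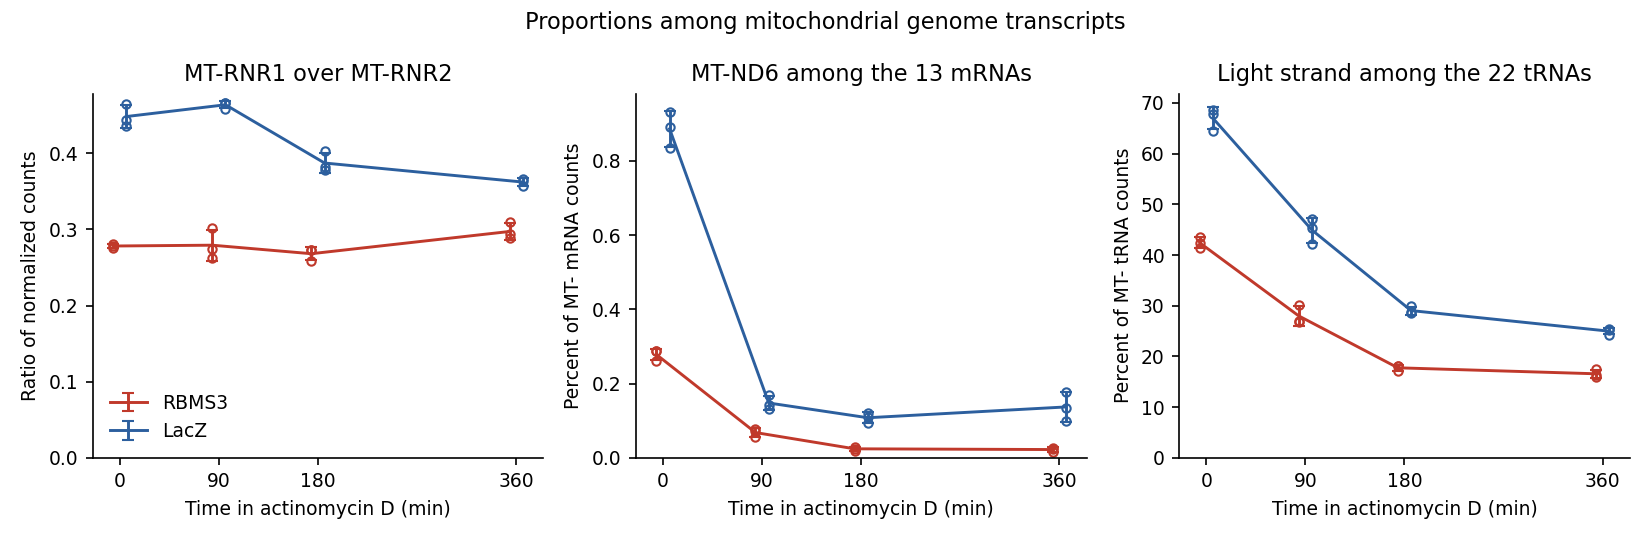
Proportions that do not depend on scaling between libraries, against minutes in actinomycin D, for RBMS3 (red) and LacZ (blue) cells: MT-RNR1 over MT-RNR2, MT-ND6 as a percent of the 13 mRNAs, and light-strand tRNAs as a percent of the 22 tRNAs. Circles are libraries, lines join means and bars are SD (n = 3). RBMS3 cells lie below LacZ cells in each panel.

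Of the 9 tested heavy-strand tRNAs, 3 were called higher and 0 lower by limma in RBMS3 cells before the drug, and of the 7 tested light-strand tRNAs 1 was called higher and 2 lower. MT-TF and MT-TV, at -0.33 and -0.39, were below 0 without passing the adjusted threshold by limma. Of all 16 tested tRNAs, 2 were called higher and 4 lower when values were scaled to ribosomal protein genes. MT-TN had 1576, 1641 and 1817 normalized counts in RBMS3 libraries and 5370, 5510 and 5474 in LacZ libraries (log2 difference -1.70, SE 0.13, adjusted p = 8.3e-10, limma). It made up 22.6% ± 1.4 of tRNA counts in RBMS3 cells and 50.3% ± 2.7 in LacZ cells (SD, n = 3 each). MT-TA, the light-strand tRNA for alanine next to MT-TN, was also lower, at -1.05.

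The tRNAs higher in RBMS3 cells at 0 min were MT-TL1 for leucine, MT-TD for aspartate and MT-TS2 for serine from the heavy strand, and MT-TP for proline from the light strand. MT-TL1 had 1680, 2154 and 2070 normalized counts in RBMS3 libraries against 1043, 1160 and 1149 in LacZ libraries, 0.81 higher on the log2 scale (SE 0.12, adjusted p = 2.19e-05, limma). MT-TD was low, with 18.9 to 48.3 normalized counts in RBMS3 libraries and 7.17 to 10.8 in LacZ libraries and a log2 difference of 1.58. MT-TS2 had 245, 272 and 211 normalized counts in RBMS3 libraries against 107, 169 and 88.0 in LacZ libraries, a log2 difference of 1.04. MT-TP had 320, 309 and 297 against 220, 210 and 151, a log2 difference of 0.69. Scaled to ribosomal protein genes, MT-TS2 and MT-TP kept their direction, at 0.70 and 0.34, and were no longer called. Without LacZ replicate 3 MT-TP was 0.52 (adjusted p = 0.0718, limma). MT-TS2 was not called without any 1 of 4 libraries, LacZ replicates 1 and 3 and RBMS3 replicates 1 and 2, with adjusted p up to 0.118 by limma. Light-strand tRNAs together made up 42.4% ± 1.1 of tRNA counts in RBMS3 cells and 67.0% ± 2.2 in LacZ cells at 0 min (SD, n = 3 each).

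After 360 min in actinomycin D nearly all mRNAs had fallen in both lines. In RBMS3 cells 7 of 31 tested members were higher at 360 than at 0 min, where 19.1% of all genes were, and 20 were lower, where 18.6% were. The 20 include MT-TH, which passed the filter only through its RBMS3 libraries at 0 min, so its call is no support. In LacZ cells 9 were higher, where 14.9% of all genes were, and 14 were lower, where 13.6% were. Of the 13 mRNAs, 12 fell in RBMS3 cells and 11 in LacZ cells, all 11 in common, and none rose; the median change of the 13 in RBMS3 cells was -1.60, and in LacZ cells -1.01, against medians over all genes of -0.01 and 0.03.

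Other scalings move the whole scale over this interval. At 360 against 0 min, scaling to the table total put the median of all genes at -0.22 in RBMS3 cells and -0.15 in LacZ cells, and scaling to ribosomal protein genes put it at -0.45 and -0.58. The LacZ split became 6 higher and 17 lower under the ribosomal protein scaling, and 8 and 16 under the table total. In RBMS3 cells the corresponding splits were 4 and 21, and 7 and 21.

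The mRNAs did not decline alike. MT-ND6 had 405, 405 and 375 normalized counts at 0 min in RBMS3 cells, then 65.9, 48.3 and 63.0 at 90 min, then 13.8, 22.1 and 18.2 at 180 min, then 16.1, 17.8 and 9.27 at 360 min. The LacZ libraries had 1523, 1613 and 1542, then 135, 137 and 162, then 111, 107 and 91.1, then 75.6, 136 and 106. Most of the drop came in the first 90 min in both lines. At 360 min 3.65% of the 0 min mean was left in RBMS3 cells and 6.79% in LacZ cells.

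MT-ND3 and MT-ND2, both complex I subunits, were next. At 360 min MT-ND3 had 9.43% of its 0 min mean in RBMS3 cells (log2 change -3.40, SE 0.08, adjusted p = 1.11e-16, limma) and 13.8% in LacZ cells (-2.85, SE 0.08, adjusted p = 1.26e-15, limma). MT-ND2 had 18.4% in RBMS3 cells and 20.5% in LacZ cells. MT-ND1 had 21.4% in RBMS3 cells and 49.6% in LacZ cells. Summed with its nuclear copies, described below, MT-ND1 changed by -2.62 on the log2 scale in RBMS3 cells and -1.54 in LacZ cells. MT-ND2 summed likewise changed by -2.44 and -2.27, so the order in RBMS3 cells depends on the split of reads. MT-ND5, MT-ATP8 and MT-CO3 had 27.6%, 32.4% and 33.0% left in RBMS3 cells, and 32.8%, 29.1% and 31.5% in LacZ cells.

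At the other end stood MT-CO2, the complex IV subunit that carries the copper site accepting electrons from cytochrome c. It had 16163, 15630 and 16345 normalized counts at 0 min and 20689, 19003 and 17218 at 360 min in RBMS3 cells, and 21742, 14445 and 19830 at 0 min and 17811, 18140 and 19686 at 360 min in LacZ cells. Neither change was called: log2 0.24 (SE 0.11, adjusted p = 0.0989, limma) in RBMS3 cells and 0.01 (SE 0.11, adjusted p = 0.963, limma) in LacZ cells. Without LacZ 0 min replicate 2 the gain in RBMS3 cells was called (adjusted p = 0.0161, limma), although that library is in neither group compared. Under ribosomal protein scaling the 2 changes were -0.21 and not called in RBMS3 cells, and -0.61 and called in LacZ cells. As a percent of the 13 mRNAs, MT-CO2 went up steadily, at 11.3% ± 0.21, 20.3% ± 0.62, 24.6% ± 0.56 and 29.6% ± 1.1 in RBMS3 cells and 10.6% ± 2.3, 15.7% ± 0.75, 19.4% ± 1.0 and 23.996% ± 0.88 in LacZ cells at the 4 times (SD, n = 3 at each).

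MT-ND4, MT-CYB and MT-ATP6 also kept much of their level. At 360 min they had 71.8%, 58.6% and 57.3% of their 0 min means in RBMS3 cells, and 86.4%, 73.7% and 50.2% in LacZ cells, and all 6 changes were called lower. MT-ND4 in LacZ cells was not called without LacZ 0 min replicate 1 or any LacZ 360 min library, with adjusted p up to 0.15 by limma. The 6 mRNAs whose stop codon is completed by the tail had a median change of -1.91 in RBMS3 cells and -1.34 in LacZ cells, and the 7 with a complete stop codon had -1.001 and -0.99. Their ranges overlapped widely, with MT-ND6, which has a complete stop codon, lowest of all.

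Both rRNAs were called higher at 360 than at 0 min in both lines as deposited, and neither was in either line when scaled to ribosomal protein genes. MT-RNR1 had 55518, 57702 and 53926 normalized counts at 0 min and 88843, 87258 and 86311 at 360 min in RBMS3 cells (log2 change 0.65, SE 0.07, adjusted p = 3.19e-07, limma), and its change in LacZ cells was 0.51. MT-RNR2 changed by 0.56 in RBMS3 cells and by 0.82 in LacZ cells. With that scaling the 4 changes were 0.20 and -0.10 for MT-RNR1 and 0.11 and 0.20 for MT-RNR2 in RBMS3 and LacZ cells, above all-gene medians of -0.45 and -0.58.

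The tRNAs split into gainers and losers. MT-TV, MT-TC, MT-TD, MT-TF and MT-TL1 were higher at 360 than at 0 min in both lines, and MT-TA, MT-TN and MT-TY were lower in both; MT-TL1 in RBMS3 cells was 0.16 and not called when scaled to ribosomal protein genes. MT-TV had the largest count among the gainers. It stood at 387, 371 and 330 normalized counts at 0 min in RBMS3 cells, then 907, 624 and 1244 at 90 min, then 3404, 2833 and 3163 at 180 min, then 6162, 6102 and 5186 at 360 min. In LacZ cells it stood at 461, 547 and 425, then 1430, 1682 and 1762, then 6720, 6049 and 6242, then 10913, 10846 and 8219.

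That is a 360 min minus 0 min log2 change of 4.00 in RBMS3 cells (SE 0.17, adjusted p = 6.79e-13, limma) and 4.38 in LacZ cells (SE 0.17, adjusted p = 2.86e-13, limma). Each later time lay wholly above the one before in both lines. At 360 min MT-TV took the largest share of tRNA counts, 37.03% ± 0.52 in RBMS3 cells and 39.9% ± 0.78 in LacZ cells (SD, n = 3 each). At 0 min its share was 4.92% and 4.38%. Its neighbours on the chromosome, MT-RNR1 and MT-RNR2, changed far less.

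MT-TC, the light-strand tRNA for cysteine, changed by 2.52 on the log2 scale in RBMS3 cells and 3.45 in LacZ cells, and MT-TF, for phenylalanine, by 1.69 and 1.504. MT-TD changed by 2.41 and 4.50, with all libraries at 48.3 normalized counts or below at 0 min. The losers were all on the light strand and lie side by side with MT-TC in a cluster of light-strand tRNA genes. MT-TN had 1576, 1641 and 1817 normalized counts at 0 min and 521, 452 and 393 at 360 min in RBMS3 cells (log2 change -1.89, SE 0.13, adjusted p = 4.28e-10, limma), and MT-TA and MT-TY changed by -3.27 and -2.43. In LacZ cells the 3 changes were -1.68, -2.19 and -2.83.

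**Figure D3:**
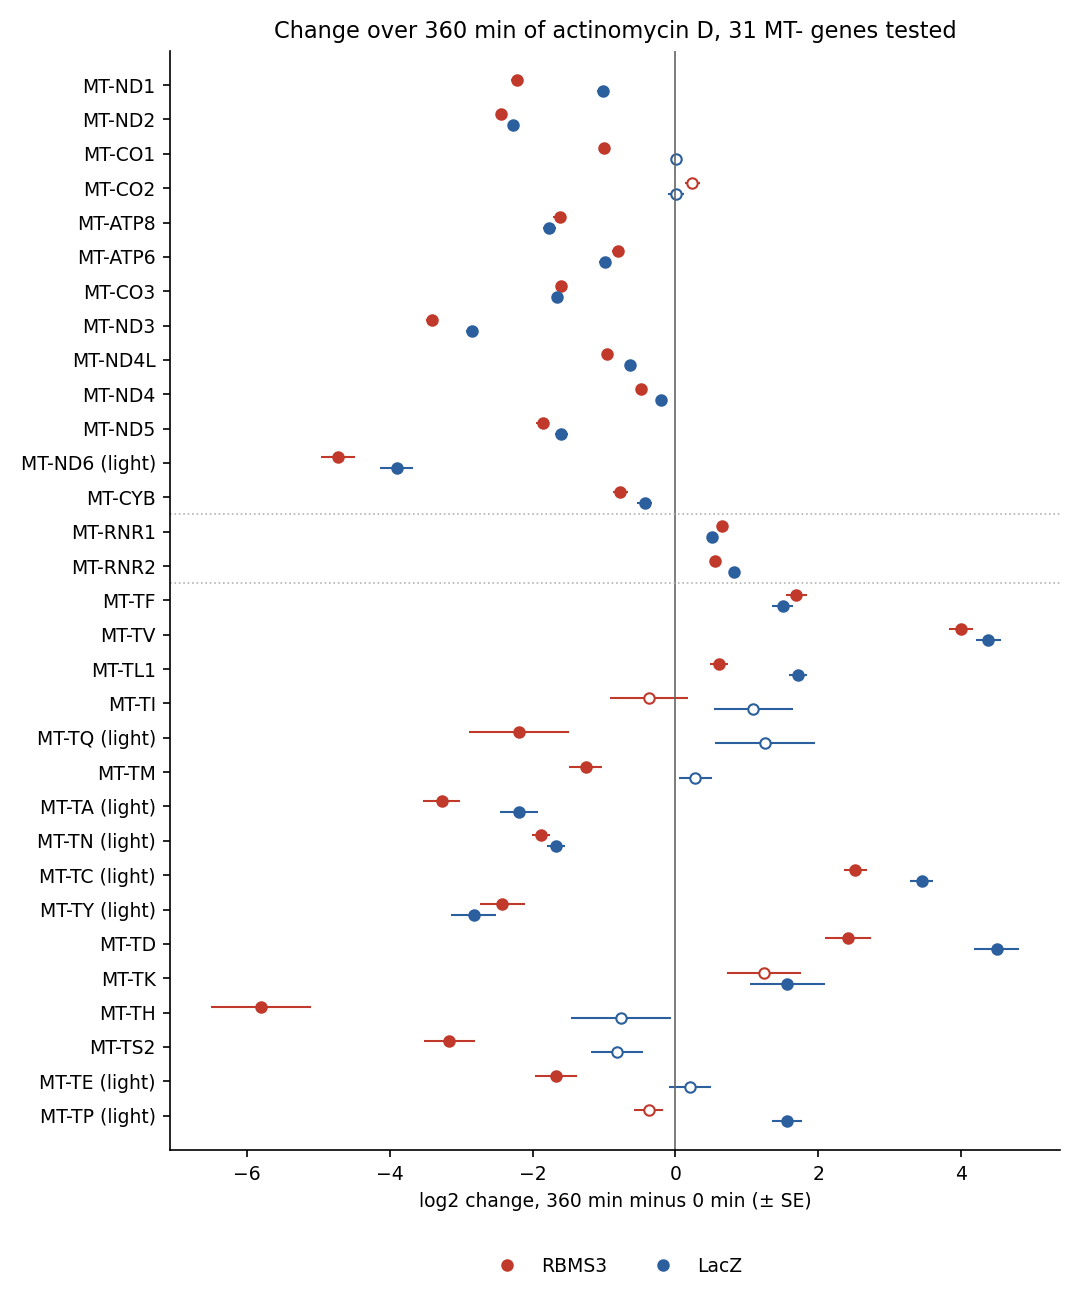
Change in log2(normalized count + 1) over 360 min of actinomycin D for the 31 tested members, RBMS3 (red) above LacZ (blue) in each row, with mRNAs at the top, then rRNAs, then tRNAs. Bars are the SE of the fit and filled circles were called. The mRNAs lie left of 0 except MT-CO2 and, in LacZ cells, MT-CO1, and tRNAs extend to both sides.

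A smaller set of tRNAs was called in 1 line alone. MT-TE, MT-TH, MT-TM, MT-TQ and MT-TS2 were lower at 360 than at 0 min in RBMS3 cells and not called in LacZ cells, and MT-TK and MT-TP were higher in LacZ cells and not called in RBMS3 cells. MT-TI was called in neither line. The MT-TK call in LacZ cells and the MT-TQ call in RBMS3 cells were each lost without 3 single libraries, with limma adjusted p up to 0.115 and 0.0627. The test of the difference between lines comes after the comparisons at single times. MT-TH, the tRNA for histidine, was at 0 in all 3 RBMS3 libraries at 360 min, against 39.7, 78.3 and 53.4 normalized counts at 0 min. Set against a floor of 3 reads per library, it was at least 18.9-fold lower at 360 min than at 0 min in RBMS3 cells. The medians of the tRNAs and of all members are unchanged with MT-TH at this bound. MT-TH passed the filter through the RBMS3 libraries at 0 min, where it was high: its mean was 14.1 over all libraries and 7.96 over the other 21, so its calls from that group are no support for a change.

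The earlier times give the order of events. From 0 to 90 min in RBMS3 cells 5 members were higher, where 7.99% of all genes were, and 20 lower, where 6.52% were. In LacZ cells 7 were higher over the same interval, where 3.44% were, and 16 lower, where 2.74% were; with ribosomal protein scaling the LacZ split was 3 and 18, and fitted on the 2 groups alone 2 and 10. From 0 to 180 min in RBMS3 cells 6 were higher, where 13.5% were, and 21 lower, where 12.4% were. In LacZ cells 8 were higher from 0 to 180 min, where 7.75% were, and 13 lower, where 6.87% were. At 90 min 11 of 13 mRNAs were already lower in each line, though in LacZ cells MT-CYB lost its call without any 1 of 3 libraries and MT-ND4L of 4, with limma adjusted p up to 0.107. Without LacZ 0 min replicate 2, MT-CO2 was also called lower in LacZ cells (adjusted p = 0.00386, limma). Both rRNAs were called higher in each line as deposited, but MT-RNR2 in LacZ cells was -0.02 when scaled to ribosomal protein genes. Its LacZ call, at 0.26, was also lost without LacZ 0 min replicate 3 or any LacZ 90 min library, with limma adjusted p up to 0.101.

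Between 90 and 360 min in RBMS3 cells 9 members were higher, where 7.62% of all genes were, and 12 were lower, where 8.35% were. Among them 10 of 13 mRNAs went on falling, and 8 of 16 tRNAs were higher and 2 lower. The MT-CYB call was lost without any 1 of 5 libraries and the MT-ND4L call without any 1 of 3, with limma adjusted p up to 0.173 and 0.101. MT-TL1 and MT-TP, which were lower at 90 than at 0 min in RBMS3 cells, were higher at 360 than at 90 min, by 1.502 and 0.89. The split was 7 and 15 scaled to the table total, and 6 and 17 scaled to ribosomal protein genes, under which MT-RNR1, 0.26 and called as deposited, was -0.22. Without RBMS3 90 min replicate 2 MT-RNR1 was 0.21 and not called (adjusted p = 0.077, limma). On the rounded estimated counts of the transcript files, edgeR's quasi-likelihood test called 9 of the 31 MT- genes it tested higher between the same times, where 9.81% of all genes were, and 12 lower, where 10.8% were.

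**Figure D4:**
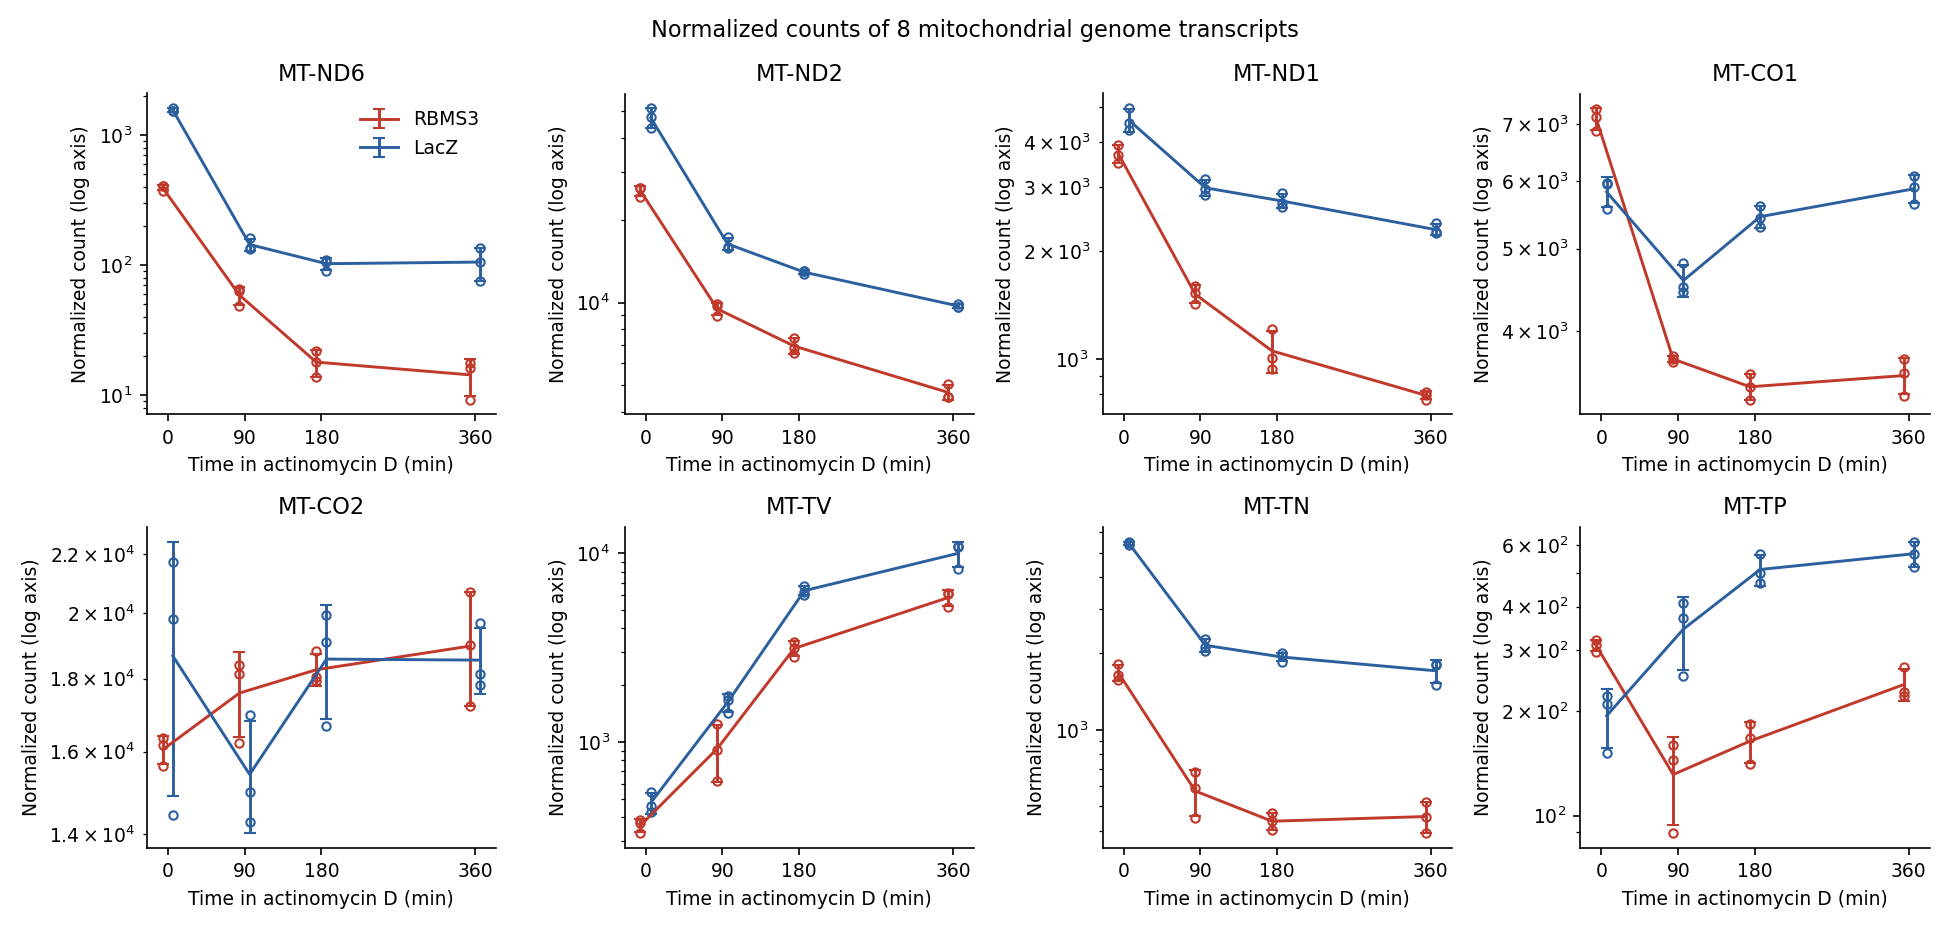
Normalized counts (log axis) of 8 members against minutes in actinomycin D for RBMS3 (red) and LacZ (blue) cells, with circles for libraries, lines through means and bars for SD (n = 3). MT-ND6 and MT-ND2 fall in both lines, MT-CO2 stays level, MT-TV climbs, and MT-CO1 and MT-TP start higher and end lower in RBMS3 than in LacZ cells.

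During the drug treatment every called difference between lines was lower in RBMS3 cells. At 90 min 0 members were higher, where 14.9% of all genes were, and 15 of 31 were lower, where 15% were. At 180 min 0 were higher, where 16.2% were, and 22 were lower, where 16.8% were. At 360 min 0 were higher, where 17.5% were, and 19 were lower, where 17.7% were. Of the 31 members, 0 were higher at any of these 3 times at an unadjusted limma p under 0.05. By the 3 other scalings no member was called higher at any of these times either.

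At 360 min the called members were 7 of 13 mRNAs, both rRNAs and 10 of 16 tRNAs. The 8 tested light-strand members had a median log2 difference of -2.02 with 7 called, and the 23 heavy-strand members -0.43 with 12 called, against -0.02 over all genes. Among the light-strand members only MT-TY was not called, at 0.07. MT-ND6 had 16.1, 17.8 and 9.27 normalized counts in RBMS3 libraries at 360 min against 75.6, 136 and 106 in LacZ libraries (log2 difference -2.80, SE 0.24, adjusted p = 8.5e-09, limma). As a percent of mRNA counts it stood at 0.0223% ± 0.0063 in RBMS3 libraries and 0.137% ± 0.040 in LacZ libraries (SD, n = 3 each).

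MT-ND1 was the heavy-strand mRNA with the largest difference at 360 min, with 797, 813 and 772 normalized counts in RBMS3 libraries against 2235, 2383 and 2249 in LacZ libraries (log2 difference -1.53, SE 0.08, adjusted p = 9.87e-12, limma). MTND1P23, a nuclear near-copy of MT-ND1, carried a mean of 67.0% of the count of MT-ND1 over all libraries, so the split of reads between them makes MT-ND1 uncertain. Summed with its nuclear copies, MT-ND1 differed by -1.38 at 360 min (adjusted p = 1.73e-11, limma). The nuclear copies with a mean of at least 10 also included those of MT-RNR2, MT-ATP6 and MT-ND2, and for the other mRNAs and MT-RNR2 the summed copies came to at most 5.29% of the gene, the value for MT-ATP6.

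MT-ND2 and MT-ND3 differed by -1.05 and -0.80 at 360 min, MT-ND5 by -0.37, MT-ND4L by -0.31 and MT-CO1 by -0.73, all called lower in RBMS3 cells. MT-CO1 had 3710, 3576 and 3362 normalized counts in RBMS3 libraries and 6087, 5644 and 5903 in LacZ libraries, so its order was opposite to that at 0 min. MT-CO2, MT-CO3, MT-ATP6, MT-ATP8, MT-CYB and MT-ND4 were not called, at -0.14 to 0.03. Scaled to ribosomal protein genes, which put the median of all genes at -0.19, 25 members were called lower and none higher.

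Among tRNAs at 360 min, MT-TQ, the light-strand tRNA for glutamine, had 17.1, 8.38 and 8.24 normalized counts in RBMS3 libraries against 256, 282 and 150 in LacZ libraries (log2 difference -4.26, SE 0.70, adjusted p = 6.72e-05, limma). The lines were far apart, with each RBMS3 library at few reads. MT-TE, for glutamate, MT-TA and MT-TN differed by -2.14, -2.14 and -1.91. MT-TH, at 0 in all RBMS3 libraries, had 8.18, 21.2 and 10.4 normalized counts in LacZ libraries and was at least 4.38-fold lower in RBMS3 cells against the floor of 3 reads per library. MT-TF, MT-TL1, MT-TI, MT-TD, MT-TK and MT-TY were not called.

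**Figure D5:**
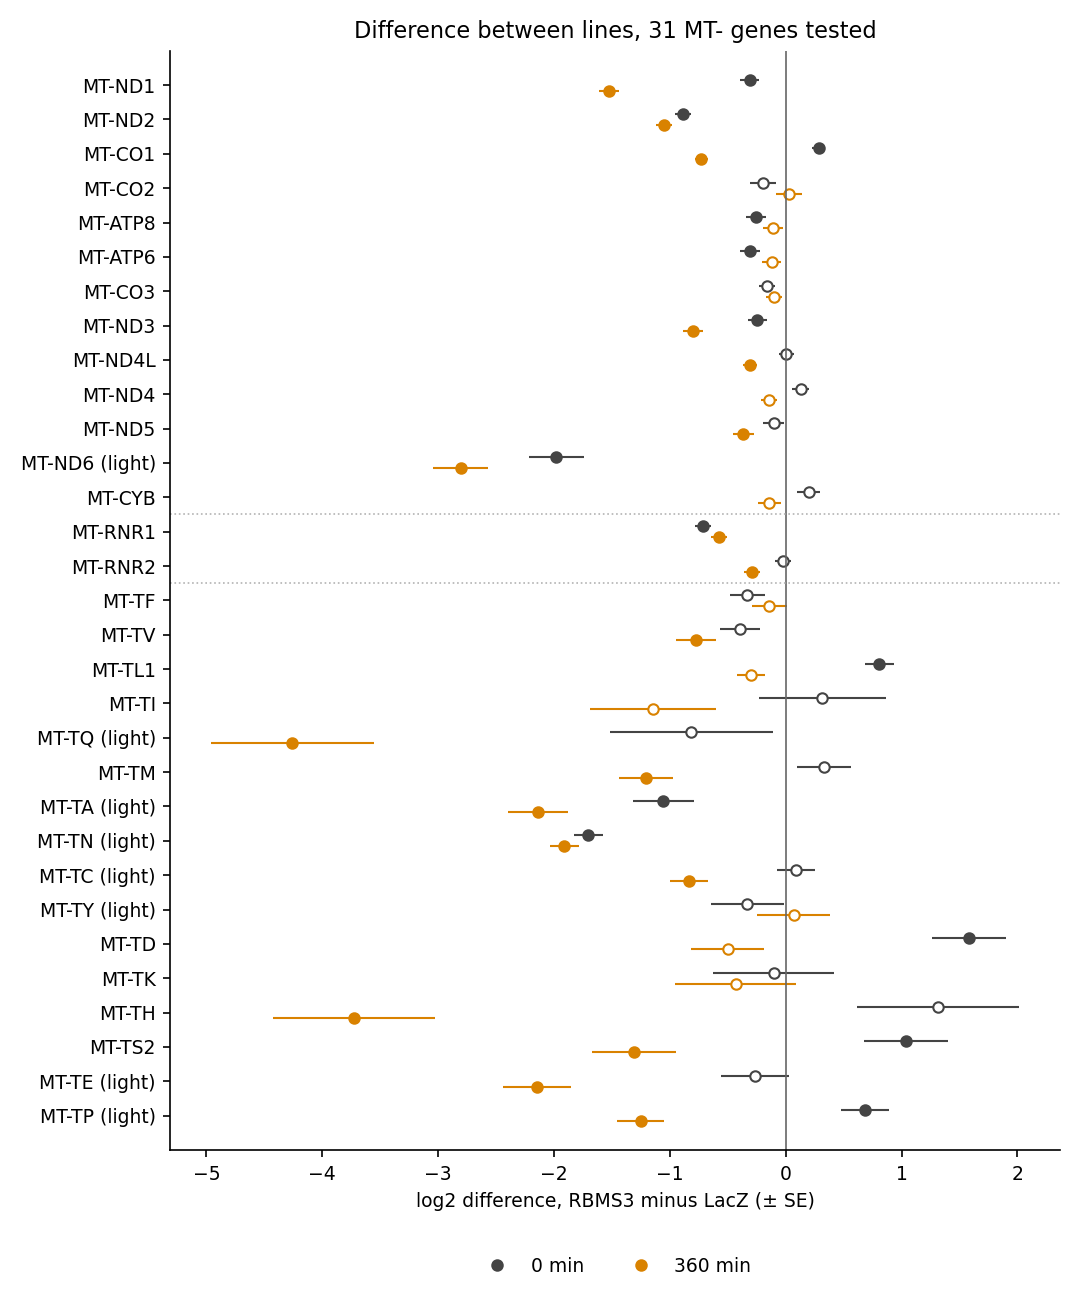
Difference in log2(normalized count + 1), RBMS3 minus LacZ, for the 31 tested members at 0 min (grey) and 360 min (orange), with mRNAs at the top, then rRNAs, then tRNAs; light-strand members are marked. Bars are the SE of the fit and filled circles were called. Called members lie on both sides of 0 at 0 min and on the left side alone at 360 min, where the MT-TH value depends on the offset because its RBMS3 libraries were at 0.

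Whether the change over time itself differed between lines was tested directly. From 0 to 90 min 0 members changed more upward in RBMS3 than in LacZ cells, where 2.71% of all genes did, and 11 of 31 changed more downward, where 2.52% did; fitted on the 4 groups alone, 6 were called, all downward. From 0 to 360 min 0 members were called upward, where 4.32% of all genes were, and 13 downward, where 3.46% were. All 11 members called by 90 min were also called at 360 min. These were 4 mRNAs, MT-CO1, MT-ND1, MT-ND3 and MT-ND4L, and 7 tRNAs, MT-TC, MT-TD, MT-TE, MT-TL1, MT-TM, MT-TP and MT-TS2, joined at 360 min by MT-TQ and by MT-TH, which had passed the filter only through its high RBMS3 libraries at 0 min. No rRNA was called in either interval. At an unadjusted limma p under 0.05, 2 members, MT-ATP6 and MT-CO2, were upward from 0 to 90 min and 0 from 0 to 360 min. Without LacZ 0 min replicate 2, MT-CO2 was called upward in both intervals (adjusted p = 0.00418 and 0.03, limma). Without LacZ 0 min replicate 3, MT-ATP6 was called upward from 0 to 90 min (adjusted p = 0.00714, limma). Downward calls from 0 to 360 min were gained by MT-RNR2, MT-TI, MT-TA, MT-ND4, MT-ND5 and MT-CYB, each without 1 library. From 0 to 90 min MT-TE lost its call without any 1 of 18 libraries, MT-TC of 9 and MT-TS2 of 8, and from 0 to 360 min MT-TQ without any 1 of 9, MT-ND4L of 8 and MT-TC of 4, with limma adjusted p up to 0.127.

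The 0 to 90 min result depended on scaling. With values scaled to ribosomal protein genes, which put the median of all genes at 0.29, 6 members were called upward (MT-RNR2, MT-ND2, MT-CO2, MT-ATP8, MT-ATP6 and MT-CO3) and 5 downward (MT-TL1, MT-TM, MT-CO1, MT-TD and MT-TP). From 0 to 360 min the same scaling called 0 upward and 11 downward, with an all-gene median of 0.14; MT-ND3 and MT-ND4L lost their calls.

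MT-CO1 shows the difference plainly among mRNAs. It had 7289, 6871 and 7136 normalized counts at 0 min in RBMS3 cells, then 3744, 3709 and 3681 at 90 min, then 3325, 3560 and 3446 at 180 min, then 3710, 3576 and 3362 at 360 min. In LacZ cells it had 5949, 5976 and 5562, then 4816, 4447 and 4503, then 5303, 5436 and 5618, then 6087, 5644 and 5903. The RBMS3 libraries dropped by 90 min and stayed there, and the LacZ libraries dipped at 90 min and overlapped their 0 min values again at 360 min. The change from 0 to 360 min in RBMS3 cells was -1.001 (SE 0.06, adjusted p = 2.97e-11, limma) and 0.01 in LacZ cells (SE 0.06, adjusted p = 0.9, limma). Their difference was -1.01 (SE 0.08, adjusted p = 6.02e-08, limma). In LacZ cells the sign depended on scaling, being 0.01 as deposited, -0.17 scaled to the table total and -0.61 scaled to ribosomal protein genes, the last 2 called.

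MT-TP ran in opposite directions in its first interval, though its LacZ gain, called as deposited at 0.82, was not called at 0.53 when scaled to ribosomal protein genes. That call was also lost without any 1 of 3 libraries, LacZ 0 min replicate 3 and LacZ 90 min replicates 1 and 2, with limma adjusted p up to 0.0942. It had 320, 309 and 297 normalized counts at 0 min and 145, 89.0 and 160 at 90 min in RBMS3 cells, and 220, 210 and 151 at 0 min and 370, 411 and 252 at 90 min in LacZ cells. At 360 min it had 267, 226 and 222 in RBMS3 cells and 615, 569 and 520 in LacZ cells. The difference between lines in the change from 0 to 360 min was -1.94 (SE 0.29, adjusted p = 0.000223, limma).

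MT-ND6, MT-ND2, MT-TN and MT-RNR1, the members with the lowest adjusted p at 0 min together with MT-TL1, were not called for a difference in change from 0 to 360 min, at -0.82 (SE 0.34, adjusted p = 0.152, limma), -0.16, -0.21 and 0.14. Each had been lower in RBMS3 cells at 0 min and was lower again at 360 min. The SEs of the last 3 were 0.09, 0.18 and 0.10.

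Nuclear genes that serve the mitochondrial genome were counted in the same fit. The 57 tested genes of mitochondrial transcription, RNA processing, decay, RNA maturation and DNA maintenance, of 58 in the table, held 1 gene called higher in RBMS3 cells at 0 min, where 18.6% of all genes were, and 6 called lower, where 18.9% were. At 360 min 7 were called higher, where 17.5% of all genes were, and 5 lower, where 17.7% were. As shares of the list, 12.3% were called in either direction at 0 min and 21.1% at 360 min. Lower at 0 min were TOP1MT, the mitochondrial topoisomerase (-1.06), MRM1, a methyltransferase of the large rRNA (-0.99), TBRG4, also called FASTKD4, an RNA stability factor (-0.92), ELAC2, the nuclease that cuts tRNA 3′ ends (-0.76), SSBP1, the single-strand DNA-binding protein (-0.43), and REXO2, an oligoribonuclease (-0.31). RBFA, a ribosome-binding factor that acts on the small subunit, was higher, by 0.61. Scaled to ribosomal protein genes, 0 of the list were called higher at 0 min and 23 lower, with a median of -0.34 over the list and -0.34 over all genes. Scaled to the table total, 0 were called higher and 6 lower, so RBFA was not called at 0 min under either scaling. ELAC2 averaged 307 ± 11 normalized counts in RBMS3 cells and 524 ± 84 in LacZ cells at 0 min (SD, n = 3 each; adjusted p = 7.76e-05, limma).

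Most of the 76 nuclear-encoded subunits of the respiratory chain and ATP synthase assemble with the 13 mitochondrial proteins. As deposited, the 76 had a median of the opposite sign from the mitochondrial mRNAs in the 4 comparisons given next. This did not hold in LacZ cells over time when scaled to ribosomal protein genes. Of the 76, 39 were higher in the RBMS3 line at 0 min, where 18.6% of all genes were, and 5 were lower, where 18.9% were. Their median log2 difference was 0.42, against -0.20 for the 13 mitochondrial mRNAs. At 360 min 35 were higher, against 17.5% of all genes, and 1 lower, against 17.7%, with medians of 0.27 and -0.31. Over 360 min of actinomycin D as deposited, 54 of the 76 rose and 0 fell in RBMS3 cells, where 19.1% and 18.6% of all genes did, and 60 rose and 0 fell in LacZ cells, where 14.9% and 13.6% did, with medians of 0.52 and 0.56, against -1.60 and -1.01 for the mitochondrial mRNAs. These counts depended on scaling: scaled to ribosomal protein genes, the 0 min split was 13 called higher against 16 called lower, with a median of 0.07, and the 360 min split 20 against 4, with a median of 0.09. From 0 to 360 min that scaling gave 11 higher and 4 lower in RBMS3 cells and 5 and 14 in LacZ cells, with medians of 0.07 and -0.06, against -2.05 and -1.63 for the mitochondrial mRNAs. The difference between the lists was not tested.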

How the data were processed

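Total RNA from 24 HMLE libraries was sequenced with Lexogen QuantSeq 3′ mRNA-seq, 75-base single reads, per the labels' protocols. The authors deposited a gene table of normalized counts (a signal on a relative scale) and transcript files with estimated counts; the submitters' processing notes list DESeq2 1.32.0, Trim Galore 0.6.6 and Salmon 1.4.0. For genome build and strandedness the sources used here give nothing. Members and lists were chosen with earlier results of these data known.

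Normalized counts were tested with limma 3.58.1 (R 4.3.3) on log2(normalized count + 1), 8 groups in 1 fit with a mean-variance trend, over 12096 genes with a mean of at least 10 over all libraries; p-values were adjusted by Benjamini-Hochberg over all of them and called under 0.05. A fold change on this scale understates the change of low genes. Depth was 4405790 to 9727290 implied reads per library, and floors cover counting error only. The named genes were all tested MT- genes and up to 6 nuclear genes of mitochondrial gene expression per direction with the largest called difference at 0 min and, in the higher line, a mean reaching 50. The estimated counts of the RBMS3 libraries at 90, 180 and 360 min, summed per gene and rounded to whole numbers, went through edgeR 4.0.16 and DESeq2 1.42.0. Alternatives were other offsets, filters, 3 scalings, a replicate block, the variance model, the groups in the fit and each library left out. The limma, edgeR and DESeq2 steps were tested on simulated data. The tables and figures were made with Python 3.11.15, pandas 2.3.3, numpy 2.4.6 and matplotlib 3.10.9.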

Additional observations from a re-analysis of the deposited data

Results flagged for a closer look

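The change over actinomycin D treatment differed between the lines, by the test of the difference in limma, for 11 of 31 tested members from 0 to 90 min and for 13 from 0 to 360 min. All values here are log2 changes in RBMS3 cells minus those in LacZ cells.

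From 0 to 90 min the mRNAs differed by -0.59 for MT-CO1, -0.67 for MT-ND1, -0.53 for MT-ND3 and -0.50 for MT-ND4L. The tRNAs differed by -0.84 for MT-TC, -2.22 for MT-TD, -1.45 for MT-TE, -1.45 for MT-TL1, -1.40 for MT-TM, -2.08 for MT-TP and -1.90 for MT-TS2. Scaled to ribosomal protein genes, MT-CO1, MT-TD, MT-TL1, MT-TM and MT-TP were still called, and MT-ND1, MT-ND3, MT-ND4L, MT-TC, MT-TE and MT-TS2 were not.

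From 0 to 360 min the mRNAs differed by -1.01 for MT-CO1, -1.21 for MT-ND1, -0.55 for MT-ND3 and -0.32 for MT-ND4L. The tRNAs differed by -0.93 for MT-TC, -2.08 for MT-TD, -1.88 for MT-TE, -1.11 for MT-TL1, -1.53 for MT-TM, -1.94 for MT-TP, -3.44 for MT-TQ and -2.35 for MT-TS2. MT-TH differed by -5.04, a fitted value that depends on the offset because its RBMS3 libraries at 360 min were at 0. It passed the filter only through its high RBMS3 libraries at 0 min. Scaled to ribosomal protein genes, MT-ND3 and MT-ND4L were not called, and the other 11 were.

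Summed with its nuclear copies, an alternative chosen after seeing the data, MT-ND1 differed by -0.44 from 0 to 90 min (adjusted p = 0.0244, limma) and by -1.08 from 0 to 360 min (adjusted p = 3.78e-06, limma). The summed epithelial and mesenchymal markers did not overlap between the lines at any time, and their part in these differences was not tested.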

How the results depend on the processing

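Of 403 member results, 290 kept their direction and side of the threshold under all planned settings. Fitted on the groups of the comparison alone, the calls were 9 in place of 14 between lines at 0 min, 12 in place of 23 in LacZ cells from 0 to 90 min and 6 in place of 11 for the line difference from 0 to 90 min; such a fit has fewer samples. Scaled to ribosomal protein genes, these values turned sign: MT-CO1 -0.064, MT-ND4L -0.34 and MT-ND4 -0.22 between lines at 0 min, MT-RNR2 -0.024 in LacZ cells at 90 min, MT-CO2 -0.40 at 180 min, MT-RNR1 -0.10, MT-CO1 -0.61 and MT-CO2 -0.61 at 360 min, and MT-RNR1 -0.22, MT-RNR2 -0.31 and MT-CO2 -0.37 in RBMS3 cells from 90 to 360 min. MT-CO1 in LacZ cells at 360 min was -0.17 by the table total and -0.16 by the total without MT- genes. The cause was not tested.

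The mRNA share difference at 360 min was -0.238 percentage points, in place of -0.204, over non-mitochondrial genes, and the LacZ tRNA share at 0 min was 0.166% in place of 0.160% from estimated reads. By library this share was 0.161%, 0.179% and 0.158% in place of 0.159%, 0.165% and 0.157%, so replicate 2 moved most. Leaving out each library in turn gave 12 to 15, 15 to 16, 21 to 23 and 19 to 20 calls between lines at 0, 90, 180 and 360 min, 22 to 26, 27 and 26 to 28 in RBMS3 cells and 18 to 23, 21 to 22 and 21 to 24 in LacZ cells at 90, 180 and 360 min. It gave 18 to 22 for RBMS3 360 against 90 min and 8 to 11 and 10 to 15 for the line differences. The share differences ranged from -0.594 to -0.464 and -0.22 to -0.188 for mRNAs at 0 and 360 min, -0.854 to -0.46 and -1.82 to -1.36 for rRNAs, and -0.055 to -0.0479 and -0.16 to -0.112 for tRNAs. Same-numbered replicates did not deviate together (84 correlations from -0.11 to 0.12, median 0.0016, 1 over 0.1); with the replicate block the calls were 14 at 0 min and 19 at 360 min between lines, and 10 and 13 for the line differences. DESeq2 on estimated counts called 22 members and edgeR 21 in RBMS3 cells at 360 against 90 min. The 6 tRNAs below the filter had few reads, and depth limits what can be said of them.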
